A study of Mus musculus with 31 samples.

Results

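Liver RNA of HFLF offspring was compared with liver RNA of HF offspring across all measured genes, with 6 HFLF and 5 HF libraries taken by their titles from the 31 libraries of the series. All were wild-type (WT) male F1 mice of the C57BL/6 strain. Every animal, in these groups and in the controls, ate chow from weaning to 6 weeks of age and then LFD for 18 weeks, and was sampled at 24 weeks. The diet tags HFD, HFLFD and LFD, shortened here to HF, HFLF and LF, were therefore read as the arm of the father. That reading rests on the series title, and no label spells it out. The 4 LF liver libraries entered the same model, and 16 libraries of epididymal white adipose tissue (eWAT) served only for a contrast of tissues. The labels do not say which litters or fathers the offspring came from, so p-values measure the spread between these animals only.

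A father's diet before mating can alter metabolism in offspring that never ate that diet, and small RNAs of sperm are among the proposed carriers. The liver is a main organ for reading such effects, since hepatocytes make and burn fat, synthesise cholesterol and bile acids, release glucose and secrete most plasma proteins. An HFLF father group asks whether the offspring of HF fathers differ once the paternal diet is returned to low fat, in so far as the tag stands for such a switch.

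The liver libraries held 13677 genes. Totals ran from 13403850 to 17268415 counts in HF and from 9869792 to 13900694 in HFLF, and the HFLF libraries were shallower (exact two-sided permutation test of totals, p = 0.0130, 462 labellings). Depth therefore moved with the arm. A floor of 3 counts stood at 0.180 to 0.303 CPM (counts divided by the library total and scaled to a common size) in these 11 libraries. Correlations of log2 CPM had a median of 0.983 between HF libraries, 0.976 between HFLF libraries and 0.981 between HF and HFLF libraries. Library HFLF 4 stood apart, with 27 genes at least 2-fold below and 18 at least 2-fold above every other HF and HFLF library, against 0 to 8 and 0 to 3 in the others. Hepatocyte genes were all present: the summed CPM of Alb, Apoa1, Ttr, Ahsg, Serpina1a, Hnf4a and Cps1 had a median of 103380 in HF and 100208 in HFLF.

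No gene passed the test between HFLF and HF livers. By edgeR's quasi-likelihood test with Benjamini-Hochberg adjustment, 0 of 13677 genes (0%) had an adjusted p under 0.05, and the smallest adjusted p was 1.00. DESeq2 and limma voom also called 0. At an unadjusted p under 0.05 stood 255 genes (1.86%), 130 higher in HFLF (0.951%) and 125 lower (0.914%), by edgeR. That is fewer than the 684 genes that an even spread of p-values would place there. DESeq2 placed 235 genes there and limma voom 418. With all libraries thinned to the smallest total, an alternative chosen after seeing the data, the counts were 0 and 246. Every change given below is a log2 fold change of HFLF over HF with its standard error, and none of them passed the adjusted threshold.

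The libraries did set limits on the size of differences. The 95% interval of the log2 fold change lay within -1 and 1 for 12280 genes (89.8%) and within -0.5 and 0.5 for 8365 genes (61.2%). The median half-width of the interval was 0.31. Only 32 genes had an estimate of at least 1 in size, and the median over all genes was 0.00. In 26 genes (0.190%) the HF and HFLF libraries did not overlap in CPM, with every HFLF library above every HF library in 11 (0.0804%) and below in 15 (0.110%). If the arms did not differ, each direction would still arise from a single labelling out of the 462 possible. Non-overlap is therefore a description and no test.

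Serpine2, which encodes a secreted serpin inhibitor of thrombin and plasminogen activators, had the smallest p of all genes. Its levels in HF were 39.2, 33.0, 39.0, 36.5 and 37.2 CPM, and in HFLF they ran from 18.7 through a median of 25.2 to 29.7 CPM. All HFLF libraries lay below all HF libraries, and HFLF 4, 5 and 6 were the lowest. The group means were 37.0 ± 2.50 (SD, n = 5) in HF and 24.8 ± 5.26 (SD, n = 6) in HFLF, and the log2 fold change was -0.58 ± 0.13 with a 95% interval from -0.85 to -0.30. The edgeR unadjusted p was 0.000386. The 4 LF libraries ranged from 31.8 to 44.2 CPM and so overlapped HF. In GRCm38, Serpine2 lies on the minus strand of chromosome 1 from 79794197 to 79861180, and no other annotated gene overlaps it. Leaving out single libraries kept its estimate between -0.63 and -0.51.

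Among the other genes with a mean of at least 5 CPM in the higher arm whose HFLF libraries all lay below HF, the shifts were smaller. Rab4a, a small GTPase of recycling endosomes, had 36.1, 36.9, 34.7, 35.4 and 32.2 CPM in HF against 22.6 to 30.6 CPM (median 28.5) in HFLF, a change of -0.33 ± 0.12. HFLF 4 was the lowest by a wide margin. Rab4a overlaps Gm20388 on its own strand, so its counts are uncertain. Hmgb3, a chromatin-binding high mobility group protein, had 11.9, 11.02, 10.8, 11.6 and 10.8 CPM in HF against 7.06 to 9.85 CPM (median 9.48) in HFLF, a change of -0.32 ± 0.10. The LF libraries of Hmgb3, at 11.1 to 12.05 CPM, lay close to HF. Ufc1, the conjugating enzyme of the ubiquitin-like protein UFM1, had 84.1 to 98.9 CPM in HF against 74.7 to 83.4 CPM in HFLF, a change of -0.18 ± 0.09 whose 95% interval from -0.37 to 0.01 held 0. Ints10, a subunit of the Integrator complex that processes small nuclear RNAs, had a change of -0.28 ± 0.12, and Phtf1 one of -0.26 ± 0.12. Non-overlap of the libraries thus went with changes well under 2-fold in each of these genes.

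In the other direction, Zfp955b, a zinc finger gene, had 5.28, 5.07, 4.45, 3.76 and 4.02 CPM in HF against 5.28 to 7.36 CPM (median 6.28) in HFLF, a change of 0.49 ± 0.15. The highest HF library, HF 1, almost touched the lowest HFLF library, HFLF 2. Cnnm4, a transporter linked to magnesium handling, had 4.57, 4.85, 5.53, 5.15 and 6.29 CPM in HF against 6.31 to 8.60 CPM (median 6.75) in HFLF, a change of 0.40 ± 0.14. Efna5, an ephrin ligand of Eph receptors, had 6.07, 4.85, 5.35, 5.50 and 5.34 CPM in HF against 6.47 to 8.07 CPM (median 6.82) in HFLF, a change of 0.36 ± 0.13. For Cnnm4 the arms were separated narrowly, HF 6 being the highest HF library and HFLF 2 the lowest HFLF library. Cnnm4 overlaps Gm37909 and Gm47280 on its own strand, so its counts are uncertain. Zfp518a (0.42 ± 0.14), Rasgrp3 (0.36 ± 0.16), an exchange factor for Ras, and Ier5 (0.27 ± 0.14), an immediate early gene, also did not overlap. G3bp2, an RNA-binding protein of stress granules, had 65.0, 61.5, 60.5, 56.2 and 60.3 CPM in HF against 67.6 to 74.2 CPM (median 71.8) in HFLF. Its change of 0.23 ± 0.06 had a 95% interval from 0.09 to 0.36, and leaving out single libraries kept it between 0.20 and 0.25. The LF libraries of G3bp2 spanned 60.2 to 69.1 CPM and overlapped both arms.

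**Figure D1:**
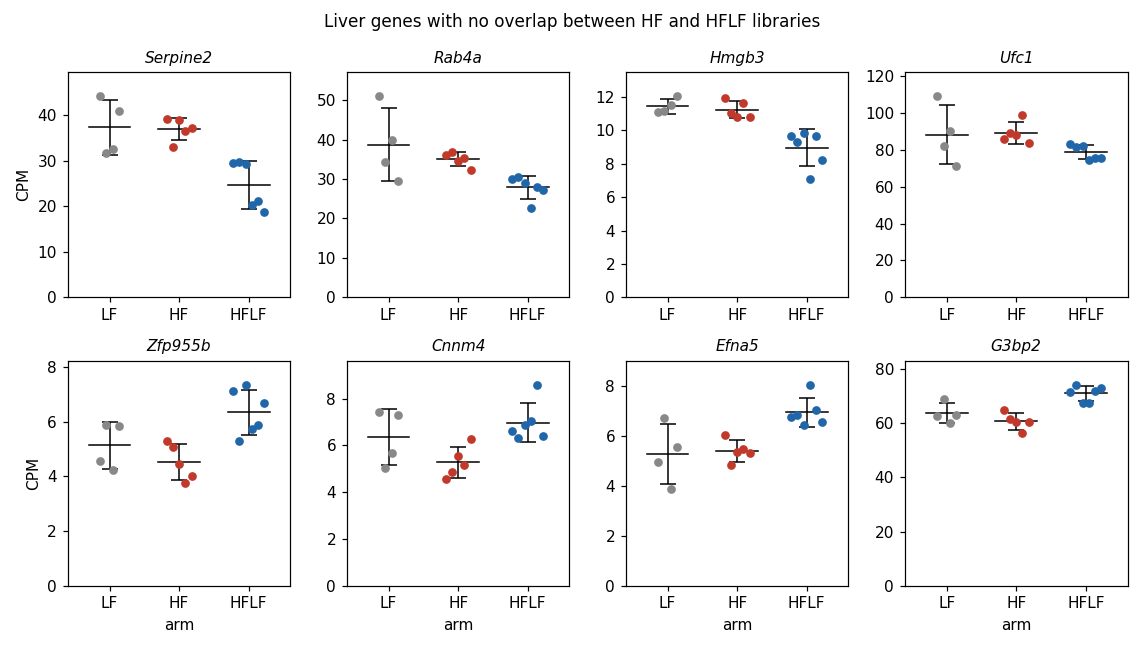
Expression in CPM (vertical axes, from 0) of 8 genes in each LF, HF and HFLF liver library (points), with the arm's mean (line) and SD (bars). In the upper row every HFLF point lies below every HF point, for example Serpine2 at 18.7 to 29.7 against 33.0 to 39.2 CPM, and in the lower row every HFLF point lies above.

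Other genes of smallest p had libraries that overlapped. Rreb1, a zinc finger transcription factor, had 35.1 to 48.0 CPM in HF against 41.6 to 73.7 CPM in HFLF (0.40 ± 0.12). Bcor, a corepressor that partners BCL6, had 10.9 to 15.3 CPM in HF against 13.9 to 24.9 CPM in HFLF (0.49 ± 0.16). In both genes HFLF 4 was the highest library. Zfp746 had 20.4 to 27.3 CPM against 27.0 to 38.1 CPM (0.34 ± 0.10). Lower estimates were found for Rgs3, a regulator of G protein signalling (-0.63 ± 0.20), and for Pisd, the mitochondrial enzyme that makes phosphatidylethanolamine (-0.31 ± 0.10). Pisd has near-identical copies in the mouse genome and overlaps Gm20671 and Gm43695 on its own strand, so its counts are uncertain.

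Several genes of small p were barely expressed in these livers. Fmr1nb, on chromosome X, had 0, 0, 0, 2 and 5 reads in HF and 6, 63, 8, 24, 3 and 47 reads in HFLF, with 6, 0, 0 and 1 in LF. HFLF 2, 4 and 6 held most of these reads, and HFLF 5 fell inside the HF range. Pqlc3, on chromosome 12, had 1.03 to 1.53 CPM in HF against 0.39 to 1.02 CPM in HFLF with no overlap (-0.93 ± 0.24). Gm16861, an antisense gene that overlaps Mgrn1 and Nudt16l1 on the opposite strand, had 0.63 to 0.79 CPM in HF and 0.97 to 1.60 CPM in HFLF (0.98 ± 0.23), and reads of the overlapping genes cannot be told from its own while the strand setting is unknown. Lrrc39 (-0.73 ± 0.26) and Gm31814 (-0.70 ± 0.25) also had HF and HFLF libraries that did not overlap, and lay near 1 CPM. Gm31814 overlaps AC169509.1 on its own strand, and Lrrc39 overlaps Gm42940 and Trmt13 on the opposite strand. The counts of both are therefore uncertain. Acta2, smooth muscle actin, had 1.39 to 2.57 CPM in HF and 1.10 to 1.75 CPM in HFLF (-0.59 ± 0.20). Col6a6 (-1.21 ± 0.38), Phactr1 (-0.67 ± 0.23) and Slpi (-1.41 ± 0.49) were lower, and Pde3a (0.64 ± 0.20), Tmppe (0.79 ± 0.25) and Pkdrej (0.96 ± 0.31) were higher, all at levels under 5 CPM and with overlapping libraries. Tmppe overlaps Glb1 on its own strand, so its counts are uncertain. Plagl1, an imprinted zinc finger gene, had 0.42 to 1.02 CPM in HF and 0.87 to 1.69 CPM in HFLF (0.91 ± 0.29). Of the 17 imprinted genes measured, 13 had a higher and 4 a lower estimate, where 50.9% of all genes had a higher one, and the median was 0.08. Plagl1 alone stood at an unadjusted p under 0.05, against 0.951% of all genes in that direction.

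Of the lists with at least 7 measured members, the MHC class II genes were the one whose estimates all lay in the same direction. These genes encode the chains that present peptides to CD4+ T cells on B cells, dendritic cells and macrophages, together with their chaperones, and the factor CIITA drives them through a conserved promoter module that includes an X2 box and a Y box. Promoters of 6 of the 9 measured genes were taken from RefSeq (GRCm38.p6) and searched. The 120 bases before the start are shown for the 5 that held the core of the Y box in that stretch. This core is ATTGG or its reverse complement CCAAT. Capitals mark ATTGG or CCAAT and, in H2-Aa, the X2 string TGACGTCA.
H2-Aa, chr17:34287824-34287943, minus strand: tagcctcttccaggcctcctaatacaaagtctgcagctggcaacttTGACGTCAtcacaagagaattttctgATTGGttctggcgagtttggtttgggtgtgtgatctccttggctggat
H2-Eb1, chr17:34305747-34305866, plus strand: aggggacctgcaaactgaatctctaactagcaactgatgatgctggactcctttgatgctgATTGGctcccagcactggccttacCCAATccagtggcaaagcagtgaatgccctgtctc
H2-DMb1, chr17:34153071-34153190, plus strand: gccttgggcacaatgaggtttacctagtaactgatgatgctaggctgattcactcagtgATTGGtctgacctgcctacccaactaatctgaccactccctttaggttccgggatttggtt
H2-DMb2, chr17:34145129-34145248, plus strand: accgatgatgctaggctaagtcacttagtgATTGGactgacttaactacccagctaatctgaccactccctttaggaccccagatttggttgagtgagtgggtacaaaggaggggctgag
H2-Ob, chr17:34238785-34238904, plus strand: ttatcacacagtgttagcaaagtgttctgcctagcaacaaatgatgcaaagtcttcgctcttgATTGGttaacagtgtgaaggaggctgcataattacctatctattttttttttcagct
The ATTGG copy began 48 bases before the start in H2-Aa, 59 in H2-Eb1, 61 in H2-DMb1, 90 in H2-DMb2 and 57 in H2-Ob, and H2-Eb1 held CCAAT as well, 35 bases before the start. Over all 32851 promoters of the table, 33.8% held ATTGG or CCAAT in the 250 bases before the start. In that longer stretch 6 of the 7 MHC class II promoters searched held it, an H2-DMa promoter among them. The longer string TGATTGG, chosen after these sequences were read and searched on both strands, was in 7.23% of all promoters. Of the 7 MHC class II promoters searched it was in the 5 shown and not in those of H2-DMa. The 5 were picked for holding ATTGG or CCAAT, and TGATTGG contains ATTGG. The share of TGATTGG among these promoters therefore cannot be compared with its share of all promoters. TGACGTCA was in 1.55% of all promoters and, of the 6 MHC class II genes searched, in H2-Aa, and TGACG, which it contains, was in 17.8%. The other strings searched on both strands, each with its share of all promoters, were AGATAA (9.99%), TGATAA (7.94%), CCACCC (28.1%), TTCCNGGAA (0.913%) and CACGTG (6.02%). Of the MHC class II promoters searched, AGATAA was in H2-DMa, TGATAA in H2-DMa and H2-Ob, and TTCCNGGAA in H2-DMb2. CCACCC and CACGTG were in none of them. A match describes letters only.

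The estimates of all 9 MHC class II genes were below 0, where 49.1% of all genes were, and their median was -0.35. Of these, 4 stood at an unadjusted p under 0.05, against 0.914% of all genes in that direction, and in none of the 9 were the arms free of overlap. H2-Aa, an alpha chain, had 24.9, 37.5, 27.5, 25.1 and 28.3 CPM in HF against 13.8 to 30.05 CPM (median 19.5) in HFLF, a change of -0.53 ± 0.17. HFLF 6 reached into the HF range and the other HFLF libraries lay below it. H2-Eb1, a beta chain, had 27.5, 43.5, 33.1, 26.0 and 35.5 CPM in HF against 17.04 to 31.1 CPM (median 22.8) in HFLF, a change of -0.51 ± 0.17. Cd74, the invariant chain, had 64.5, 109.1, 72.3, 61.3 and 86.8 CPM in HF against 42.0 to 72.5 CPM (median 55.3) in HFLF, a change of -0.49 ± 0.17. H2-Ab1, the other beta chain, had 27.9, 48.2, 34.9, 28.7 and 35.8 CPM in HF against 19.3 to 35.7 CPM (median 26.8) in HFLF, a change of -0.40 ± 0.18. HF 2 was the highest library in all 4 genes, and without it their estimates were -0.41, -0.39, -0.35 and -0.26. The LF libraries overlapped both arms, at 16.9 to 26.1 CPM for H2-Aa and 47.5 to 80.5 CPM for Cd74. Of the measured MHC class II genes, H2-Ab1 and Ciita had no promoter entry. Cd74 was left out of the promoter search, so no string result is given for it.

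The remaining MHC class II genes were weakly expressed. H2-DMa and H2-DMb1, chains of the peptide-loading chaperone, had changes of -0.35 ± 0.22 and -0.21 ± 0.28. Ciita had -0.31 ± 0.33, and H2-Ob and H2-DMb2 had -0.13 ± 0.43 and -0.02 ± 0.46. Without HF 6, Ciita (0.04), H2-Ob (0.40) and H2-DMb2 (0.56) turned to higher estimates, so that 6 of 9 members were lower and the median was -0.26. In bulk tissue, fewer cells of a type and less RNA per cell cannot be told apart. Psmb10, a subunit of the immunoproteasome, had 41.3 to 55.5 CPM in HF and 38.7 to 47.7 CPM in HFLF (-0.22 ± 0.09), while the other immunoproteasome subunits Psmb8 and Psmb9 had 0.02 ± 0.11 and 0.03 ± 0.14. Of the 18 MHC class I presentation genes 6 were higher and 12 lower, with a median of -0.02. Psmb10 was the member at an unadjusted p under 0.05, against 0.914% of all genes in that direction.

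Genes of the cells that carry MHC class II were set beside these values. Of 12 B cell genes measured, 10 had a lower estimate, with a median of -0.37, but this rested on HF 6. Ighm, the IgM heavy chain, had 11.4, 7.35, 8.42, 5.64 and 131.6 CPM in HF against 3.86 to 13.4 CPM in HFLF. Igkc, the kappa light chain, had 59.5 CPM in HF 6 against 2.77 to 8.98 CPM in the other 10 libraries, and Jchain had 14.6 CPM against 0.79 to 2.12 CPM. Without HF 6 the changes of Ighm, Igkc and Jchain were 0.15, 0.06 and 0.13, in place of -1.85 ± 0.86, -1.76 ± 0.76 and -1.50 ± 0.69, and the list median was 0.05. The summed CPM of the 12 genes ran from 25.8 to 226.4 in HF and from 17.2 to 37.9 in HFLF, with no member at 0 in any library and Ms4a1 not among the measured genes. Of the 10 dendritic cell genes 5 were higher and 5 lower (median -0.04, summed CPM 174.8 to 215.3 in HF and 171.6 to 191.8 in HFLF), and of the 24 Kupffer cell and macrophage genes 11 were higher and 13 lower (median -0.02, summed CPM 608.3 to 1012 in HF and 692.5 to 792.0 in HFLF). Of the dendritic cell genes, Wdfy4, needed for cross-presentation, had the smallest p, with 5.85 to 10.7 CPM in HF and 4.15 to 7.82 CPM in HFLF (-0.41 ± 0.19, and -0.26 without HF 2). Of 28 T and NK cell genes listed 7 were measured, and 5 of these were lower, with a median of -0.22 that was 0.12 without HF 6. The T and NK cell markers Cd3d, Cd3e, Cd3g, Ncr1 and Klrb1c were not among the measured genes. Of the dendritic cell markers, Flt3, Xcr1 and Cd209a were not measured either, and Clec9a ran from 2.32 to 4.44 CPM in HF and HFLF. HF 2 held the highest sum of both the dendritic and the macrophage lists, and without it their medians were 0.08 and 0.21. The part of these cells in the MHC class II values was not tested.

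**Figure D2:**
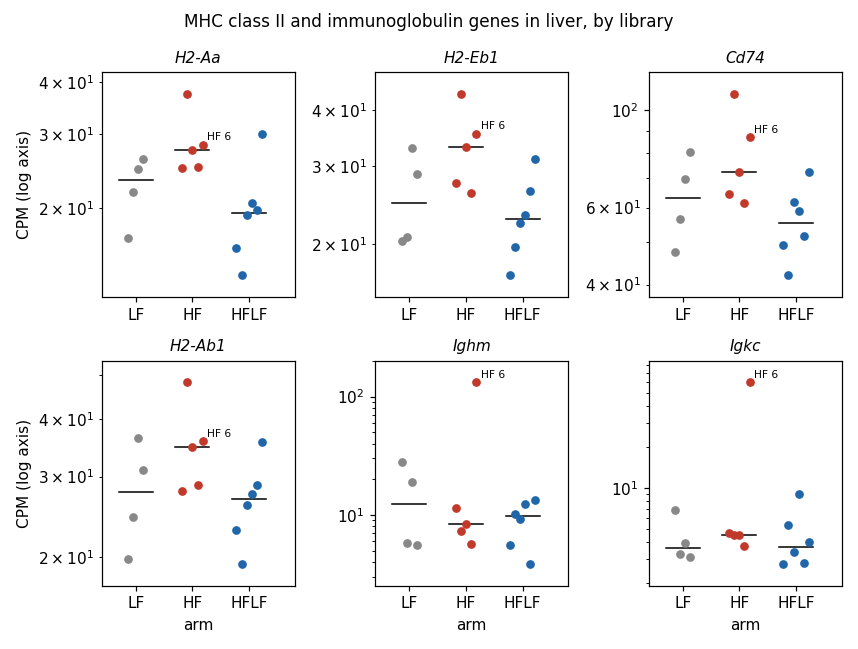
Expression in CPM (log axes) of 4 MHC class II genes and 2 immunoglobulin genes in each liver library (points), with the arm's median (line) and HF 6 marked. The MHC class II genes shift with overlap, and Ighm and Igkc in HF 6, at 131.6 and 59.5 CPM, lie far above all other libraries.

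Globin transcripts had higher estimates in HFLF. Hbb-bs, an adult beta-globin, had 35.8, 58.9, 30.2, 59.0 and 91.2 CPM in HF against 66.8 to 105.4 CPM (median 80.5) in HFLF, a change of 0.58 ± 0.23. Hbb-bt, the other adult beta-globin, had 2.71, 4.04, 2.16, 3.34 and 6.29 CPM in HF against 4.57 to 9.08 CPM (median 5.39) in HFLF, a change of 0.65 ± 0.24. Hba-a1 (0.47 ± 0.22) and Hba-a2 (0.72 ± 0.38), the alpha-globins, had estimates of the same sign. HF 6 lay within the HFLF range of Hbb-bs, while HF 1 and HF 3 were the lowest libraries of Hbb-bs, Hbb-bt and Hba-a1. The globin genes of each pair are near-identical copies, so the split between them is uncertain. The LF libraries had 52.7 to 79.5 CPM of Hbb-bs.

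The other red blood cell genes had estimates of either sign. Alas2, the erythroid enzyme that starts haem synthesis, had 74.85 to 108.1 CPM in HFLF and 75.7 to 105.6 CPM in HF (0.07 ± 0.11). Fech, the last enzyme of haem synthesis, had a change of 0.04 ± 0.07, Bpgm one of 0.05 ± 0.12 and Slc25a37, a mitochondrial iron carrier, one of -0.01 ± 0.11. Klf1 was at 0.14 ± 0.27, Epor at -0.02 ± 0.34, Tal1 at -0.27 ± 0.24 and Sptb at -0.36 ± 0.29. Of the 13 genes measured, 9 had a higher estimate and 2 of them, Hbb-bt and Hbb-bs, stood at an unadjusted p under 0.05, against 0.951% of all genes in that direction. The median was 0.07. The summed CPM of the globins and Alas2 ran from 125.6 to 208.4 in HF and from 166.1 to 233.5 in HFLF.

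Sinusoidal endothelial genes were mostly higher. These genes mark the fenestrated lining cells of the liver. Of 20 measured, 18 had a higher estimate, where 50.9% of all genes did, with a median of 0.19. Tek, the angiopoietin receptor, had 7.78, 7.57, 9.68, 5.29 and 7.38 CPM in HF against 7.26 to 15.5 CPM (median 9.73) in HFLF, a change of 0.51 ± 0.20. Tek was the member at an unadjusted p under 0.05, against 0.951% of all genes in that direction. Pecam1 had 14.3 to 15.7 CPM in HF and 13.96 to 23.4 CPM in HFLF (0.29 ± 0.15), the mannose receptor Mrc1 had 23.2 to 31.3 and 23.6 to 40.6 CPM (0.34 ± 0.21), and the VEGF receptor Kdr had 35.5 to 44.0 and 33.6 to 54.8 CPM (0.23 ± 0.15). HFLF 1 and HFLF 4 were high in these genes while HFLF 2 lay with HF. The summed CPM of Stab2, Clec4g and Lyve1 ran from 86.6 to 128.6 in HF and from 84.9 to 145.8 in HFLF. Without HFLF 4 the list median was 0.08, with 15 of 20 members higher. Stellate cell and fibroblast genes were lower in 14 of 19 members (median -0.06) and cholangiocyte genes in 9 of 14 (median -0.19), and hepatocyte genes were higher in 14 of 22 (median 0.02).

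Acute phase genes, which hepatocytes raise under interleukin-6 signalling, were lower in estimate in 31 of 34 members, with a median of -0.25, and 0 members stood at an unadjusted p under 0.05. Saa1, a serum amyloid A, had 1154, 2938, 23.4, 1088 and 63.5 CPM in HF and 30.1, 2855, 363.4, 30.5, 28.6 and 18.8 CPM in HFLF. HF 1, HF 2, HF 5 and HFLF 2 were high, and both arms held libraries at the low level. Saa2, a near-identical copy whose reads may be split with Saa1, had 10.9 to 2882 CPM in HF and 9.31 to 2450 CPM in HFLF. Lcn2, lipocalin 2, had 57.8, 208.5, 1.74, 59.2 and 6.14 CPM in HF and 2.62, 308.9, 14.1, 1.61, 3.38 and 2.90 CPM in HFLF. Orm2, an orosomucoid, and Apcs, serum amyloid P, were high in the same 4 libraries, at 16.4 to 85.7 CPM and 161.7 to 405.9 CPM, against 1.58 to 8.95 CPM and 31.2 to 103.6 CPM in the other 7. Lcn2, Orm2 and Apcs were chosen after their values were seen.

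The fold changes of these genes were accordingly wide. Saa1 had -0.93 ± 1.56, Saa2 -1.14 ± 1.79, Lcn2 -0.25 ± 1.46, Orm2 -0.15 ± 1.05 and Apcs -0.31 ± 0.68. Leaving out HFLF 2 gave -3.48 for Saa1 and leaving out HF 2 gave -0.07. The list median was -0.44 without HFLF 2 and -0.09 without HF 2. Hp, haptoglobin, had 2536 to 9540 CPM in HF and 2095 to 8096 CPM in HFLF (-0.48 ± 0.39), and Cp, ceruloplasmin, 1020 to 1566 and 800.4 to 1601 CPM (-0.19 ± 0.15). Saa4 (-0.28 ± 0.21) and the metalloreductase Steap4 (-0.24 ± 0.16) had smaller errors, and were -0.08 and -0.13 without HF 2. Hamp, which encodes the iron hormone hepcidin, ran otherwise, with 183.9, 146.8, 523.2, 148.5 and 151.9 CPM in HF and 84.0 to 423.9 CPM in HFLF (0.22 ± 0.46). Its change was 0.77 without HF 3 and 0.05 without HFLF 5. Mt1 and Mt2, the metallothioneins, had 0.31 ± 0.72 and 0.55 ± 0.98, with HFLF 2 the highest library in both. Of 28 complement genes 22 were lower in estimate, with a median of -0.06 and 0 at an unadjusted p under 0.05.

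**Figure D3:**
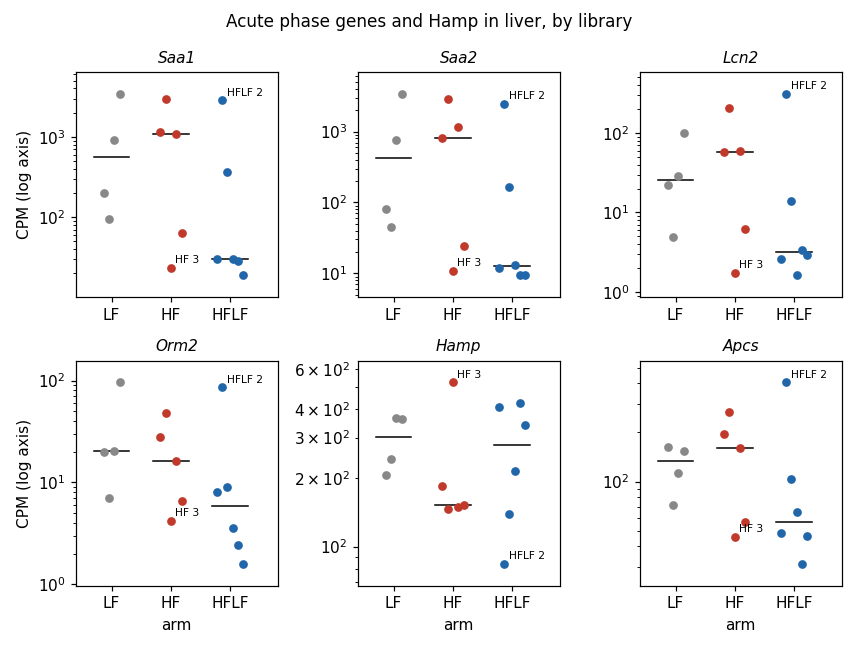
Expression in CPM (log axes) of 5 acute phase genes and Hamp in each liver library (points), with the arm's median (line) and HFLF 2 and HF 3 marked. Saa1 spans 23.4 to 2938 CPM in HF and 18.8 to 2855 CPM in HFLF, so that each arm holds high and low libraries.

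Fatty acid oxidation genes were close to level between the arms. The 38 PPAR-alpha targets, which the nuclear receptor PPAR-alpha drives in fasting and fat feeding, had a median of 0.04, with 24 higher, 14 lower and 0 at an unadjusted p under 0.05. Ppara itself had 73.5, 76.9, 85.0, 131.6 and 116.0 CPM in HF against 89.0 to 165.7 CPM in HFLF (0.26 ± 0.19, and 0.13 without HFLF 4). Pdk4, which restrains pyruvate oxidation, had 0.55 ± 0.43 (0.19 without HFLF 6), Cidec, a lipid droplet protein, -0.58 ± 0.34, and Cpt2, of the carnitine shuttle, 0.10 ± 0.13. The 24 mitochondrial fatty acid oxidation genes had a median of 0.01, the 26 TCA cycle genes 0.00, the 47 complex I genes 0.00 and the 8 genes of mitochondrial DNA 0.01. For the coregulator Ppargc1a the change was 0.15 ± 0.28, and for Sdhd, a complex II subunit, 0.14 ± 0.10.

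**Figure D4:**
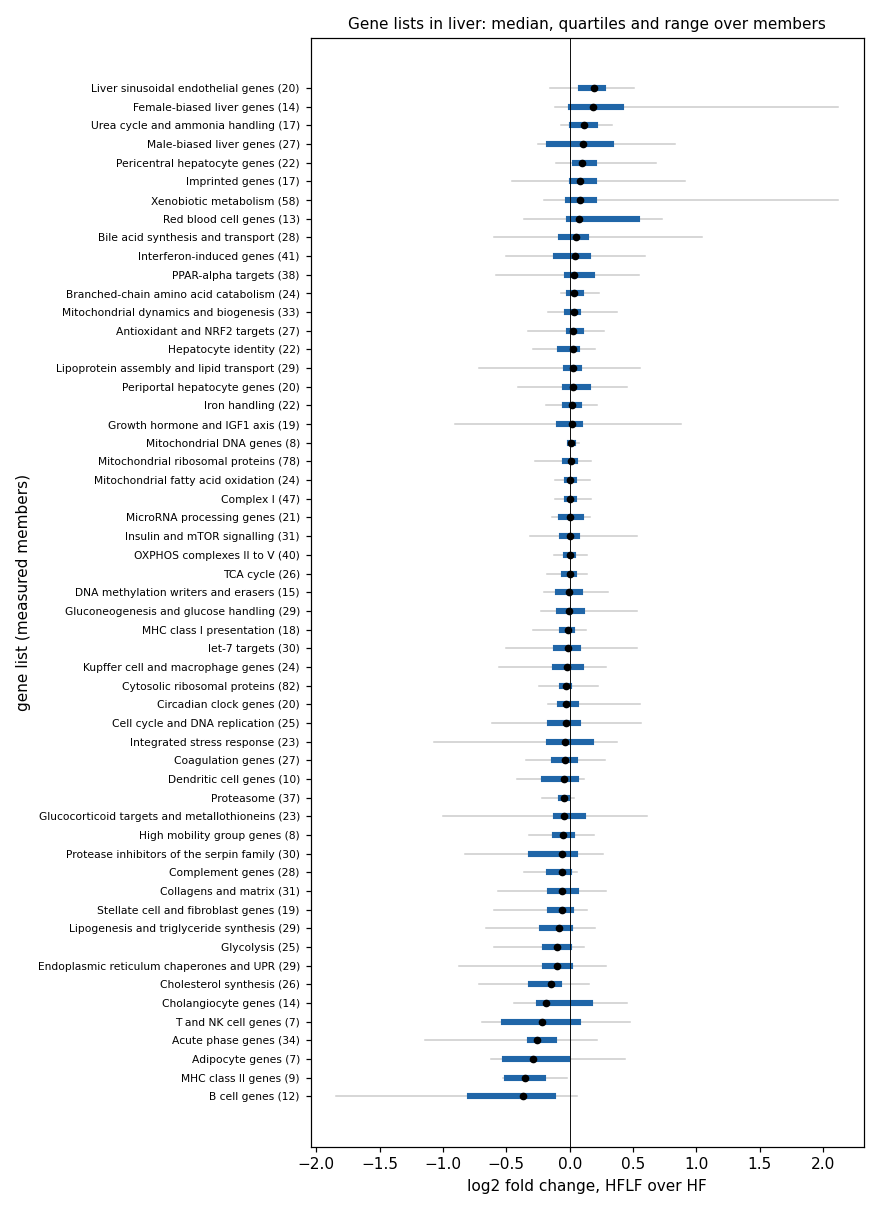
Log2 fold changes of HFLF over HF (horizontal axis) over the measured members of each gene list with at least 7 members (rows, member number in brackets), as median (point), quartiles (thick line) and range (thin line). Medians run from -0.37 for B cell genes and -0.35 for MHC class II genes to 0.19 for sinusoidal endothelial genes, and most lie near 0.

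Genes of lipid synthesis were mostly lower in estimate. Of 29 lipogenesis genes 21 were lower, where 49.1% of all genes were, with a median of -0.08 that ran from -0.21 without HFLF 6 to -0.01 without HFLF 2. Aacs, which activates ketone bodies for lipid synthesis, was the member at an unadjusted p under 0.05, against 0.914% of all genes in that direction, with 134.3, 142.6, 177.3, 112.3 and 146.1 CPM in HF against 47.1 to 136.4 CPM (median 96.1) in HFLF, a change of -0.66 ± 0.28. HFLF 1 and HFLF 6 lay within the HF range, and the other HFLF libraries lay below it. Fads2, a desaturase, had -0.31 ± 0.21, and Srebf1, the regulator of the pathway, -0.22 ± 0.26. Fasn, fatty acid synthase, had 338.0 to 1142 CPM in HF and 310.2 to 1352 CPM in HFLF (-0.20 ± 0.45), and Scd1, stearoyl-CoA desaturase, had 0.17 ± 0.47.

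Cholesterol synthesis genes were lower in estimate in 23 of 26 members, with a median of -0.15 and 0 at an unadjusted p under 0.05. Insig1, the sterol sensor partner, had -0.35 ± 0.30, Fdps, farnesyl diphosphate synthase, -0.40 ± 0.52, and Srebf2, the regulator, -0.11 ± 0.14. The list median was -0.39 without HFLF 6 and 0.00 without HF 1.

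Bile acid genes had estimates of either sign. Cyp8b1, the sterol 12-alpha hydroxylase that directs synthesis to cholic acid, had 199.7, 287.6, 207.0, 105.5 and 121.7 CPM in HF against 234.2 to 589.4 CPM (median 265.6) in HFLF, a change of 0.89 ± 0.33 with a 95% interval from 0.17 to 1.61. HF 2 lay within the HFLF range and the other HF libraries below it. Cyp7a1, the rate-limiting enzyme, had 56.75 to 188.8 CPM in HF and 10.1 to 652.6 CPM in HFLF (1.04 ± 0.74), with HFLF 4 the lowest and HFLF 6 the highest library of all 11. Without HFLF 6 the change of Cyp7a1 was 0.38. Slc10a2, a bile acid transporter, had 14.8 to 36.9 CPM in HF and 11.1 to 20.8 CPM in HFLF (-0.59 ± 0.23), and -0.36 without HF 5. The bile acid receptor Nr1h4 was level, at 169.0 to 192.2 CPM in HF and 165.8 to 192.8 CPM in HFLF (0.06 ± 0.08). Of 28 genes of this list 16 were higher and 12 lower, with a median of 0.05. In each direction 1 stood at an unadjusted p under 0.05, against 0.951% of all genes for higher and 0.914% for lower.

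Genes of glucose and amino acid handling gave small differences. Pcx, pyruvate carboxylase, had 1025, 1041, 905.3, 1041 and 833.8 CPM in HF against 761.3 to 935.5 CPM (median 841.3) in HFLF, a change of -0.18 ± 0.09. HF 3 and HF 6 overlapped HFLF. Pck1 (-0.11 ± 0.29) and G6pc (-0.08 ± 0.47), the gluconeogenic enzymes, overlapped widely. Glycolysis genes were lower in 21 of 25 members with a median of -0.10, and urea cycle and ammonia genes higher in 15 of 17 with a median of 0.11, with 0 members of either at an unadjusted p under 0.05. Endoplasmic reticulum chaperones were lower in 21 of 29 members (median -0.10), pericentral hepatocyte genes were higher in 19 of 22 members (median 0.09) and periportal genes in 12 of 20 (median 0.02). Proteasome genes were lower in 32 of 37 members and cytosolic ribosomal protein genes in 66 of 82, with medians of only -0.05 and -0.03.

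Hormone axis and stress genes were described in the same way. Cish, a STAT5-induced inhibitor of growth hormone signalling, had 35.6, 33.8, 57.05, 25.2 and 29.5 CPM in HF against 4.74 to 31.6 CPM (median 19.8) in HFLF, a change of -0.90 ± 0.40. HFLF 2 overlapped HF, and HFLF 4 was the lowest. Igf1 had 467.0 to 675.4 CPM in HF and 451.2 to 614.0 CPM in HFLF (-0.06 ± 0.12). Of 19 growth hormone and IGF1 axis genes 10 were higher and 9 lower, with a median of 0.02. Their estimates ran from -0.90, that of Cish, to 0.88. Of them 1, lower in HFLF, stood at an unadjusted p under 0.05 by edgeR, against 0.914% of all genes in that direction. Cyp2b9, a female-biased P450, had 0, 0.22, 0.30, 0.28 and 1.24 CPM in HF and 4.73, 0.47, 0, 0.91, 4.06 and 0.35 CPM in HFLF, so that 1 library of each arm was at 0 and HFLF 1 and HFLF 5 held the high values. Serpina7, thyroxine-binding globulin, had 78.1, 59.45, 19.8, 63.6 and 46.0 CPM in HF against 24.9 to 38.4 CPM in HFLF (-0.83 ± 0.30), and HF 3 was the lowest library of all.

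Of the integrated stress response genes, 11 were higher and 12 lower. Psat1, of serine synthesis, had 1.36, 1.69, 0.54, 1.67 and 1.46 CPM in HF and 0.18 to 1.82 CPM (median 0.49) in HFLF (-1.07 ± 0.45), and -1.67 without HFLF 4, its highest library. Chac1, which degrades glutathione, had -0.68 ± 0.30 and Cth, cystathionine gamma-lyase, 0.38 ± 0.16 (0.24 without HFLF 6). Fgf21, a liver stress hormone, had 1.86 to 9.48 CPM in HF and 1.09 to 26.4 CPM in HFLF (0.32 ± 0.90). HFLF 4 held the highest value, and without it the change of Fgf21 was -1.11. A1cf, a cofactor of Apob mRNA editing, had 29.3 to 58.1 CPM in HF and 45.2 to 73.2 CPM in HFLF (0.38 ± 0.19), and Apoc2, the lipoprotein lipase cofactor, 2.77 to 5.77 and 3.47 to 11.6 CPM (0.56 ± 0.27, and 0.30 without HFLF 4). Mbd3, of the NuRD complex, had 64.5 to 75.02 CPM in HF and 52.5 to 65.6 CPM in HFLF (-0.20 ± 0.07). Hnf4a, the hepatocyte regulator, was at 0.03 ± 0.17.

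The series title names the microRNA let-7, whose targets and processing enzyme were therefore read. Dicer1, which cuts microRNA precursors, had 39.55, 36.6, 41.2, 43.8 and 45.25 CPM in HF against 40.2 to 50.1 CPM (median 43.6) in HFLF, a change of 0.10 ± 0.08 with a 95% interval from -0.07 to 0.27. HFLF 2 lay above the HF range and the other HFLF libraries within it. Of 30 let-7 targets 13 were higher and 17 lower, with a median of -0.02 and 0 at an unadjusted p under 0.05. Irs1, the insulin receptor substrate, had 0.53 ± 0.30 with HFLF 4 the highest library at 12.9 CPM and a change of 0.18 without it, and Hmga1 had -0.16 ± 0.12. Of 21 microRNA processing genes 11 were higher and 10 lower, with a median of 0.00.

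Circadian genes set HFLF 4 apart. Arntl, the clock activator that pairs with CLOCK, had 5.75 CPM in HFLF 4 against 0.66 to 2.99 CPM in the other HF and HFLF libraries. Over the 20 clock genes measured, HFLF 4 lay below all other HF and HFLF libraries in 9, above them in 4 and among them in 7. Per3 had 11.3 CPM against 37.7 to 80.7 CPM, Ciart 3.43 CPM against 18.2 to 53.6 CPM, Usp2 13.6 CPM against 67.2 to 166.1 CPM and Dbp 70.3 CPM against 96.3 to 223.4 CPM. Nr1d1, a repressor that the same activator drives, was instead high in HFLF 4, at 163.0 CPM against 37.95 to 138.4 CPM. Per3, Ciart, Usp2, Nr1d1 and HFLF 4 itself were singled out after their values were seen. Bhlhe40 had the smallest p of the clock list, with 129.8 to 177.9 CPM in HF and 107.4 to 147.4 CPM in HFLF (-0.17 ± 0.10). Of 20 clock genes 7 were higher and 13 lower, with a median of -0.03 and 0 at an unadjusted p under 0.05. The time of day of collection is not given in the sources used here. Cyp7a1, Cish and Rab4a were lowest, and Rreb1, Bcor, Tek, Irs1 and Fgf21 highest, in HFLF 4 among the HF and HFLF libraries. Without HFLF 4 the count of adjusted calls was still 0, with 379 genes at an unadjusted p under 0.05.

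**Figure D5:**
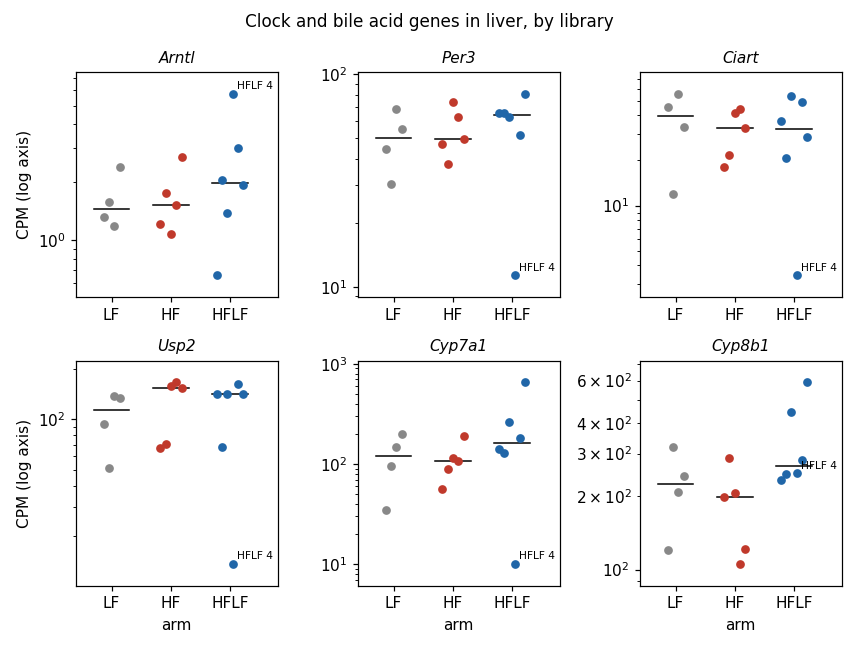
Expression in CPM (log axes) of 4 clock-related genes and 2 bile acid enzymes in each liver library (points), with the arm's median (line) and HFLF 4 marked. HFLF 4 is highest in Arntl and lowest in Per3, Ciart, Usp2 and Cyp7a1, while its Cyp8b1 lies with the other HFLF libraries.

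HF and HFLF were each also set beside LF, which both share, so the values below are not independent of one another. At an unadjusted p under 0.05 by edgeR stood 3.60% of genes for HF and 5.47% for HFLF. Serpine2 differed from LF by -0.02 ± 0.14 in HF and -0.59 ± 0.14 in HFLF, and H2-Aa by 0.35 ± 0.19 in HF and by -0.17 ± 0.18 in HFLF. Pcx differed by 0.38 ± 0.10 in HF and by 0.20 ± 0.09 in HFLF. The median over MHC class II genes was 0.33 in HF and -0.15 in HFLF. For PPAR-alpha targets it was 0.29 in HF and 0.34 in HFLF.

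The contrast of HFLF with HF was last compared between liver and eWAT, over 12735 genes in both tables. By edgeR's test of the interaction, 0 genes (0%) had an adjusted p under 0.05, the smallest being 0.635, and 629 (4.94%) stood at an unadjusted p under 0.05. Within eWAT, 0 genes had an adjusted p under 0.05 between HFLF and HF by edgeR, and 9.30% an unadjusted one. Without HFLF 4 the interaction of Psat1 (-1.996) passed, with an edgeR adjusted p of 0.0303. Psat1 had 9 to 24 reads in HF livers and 3, 9, 4, 18, 6 and 2 in HFLF livers. It thus lay near the floor of 3 counts, and the library left out was its highest in HFLF. Lrrc39 had the smallest p, with -0.73 ± 0.26 in liver and 0.41 ± 0.11 in eWAT, and Pqlc3 had -0.93 ± 0.24 in liver and 0.16 ± 0.12 in eWAT. Gm31814 had -0.70 ± 0.25 and 0.71 ± 0.28, Gys2, liver glycogen synthase, -0.02 ± 0.16 and 1.51 ± 0.30, and Poldip2 -0.07 ± 0.07 and 0.31 ± 0.06. In the other direction, Nr1h4 had 0.06 ± 0.08 in liver and -0.96 ± 0.27 in eWAT, Rgn 0.03 ± 0.11 and -2.71 ± 0.79, Lmntd2 0.42 ± 0.25 and -1.45 ± 0.43, Ugt1a7c 0.73 ± 0.27 and -0.36 ± 0.14, and Fmr1nb 4.36 ± 1.00 and -0.07 ± 0.51. For Gys2, Poldip2, Nr1h4 and Rgn the estimate in liver was near 0. Ugt1a7c had 7 to 19 reads per liver library and overlaps Ugt1a1, Ugt1a2 and other Ugt1a genes on its own strand, so its counts are uncertain. The eWAT libraries themselves differed between arms: the summed CPM of 5 testis germ cell genes (Ldhc, Prm1, Prm2, Tnp1 and Tnp2) ran from 0.0894 to 115.8 in HF and from 0.197 to 1.19 in HFLF, and the mean log2 CPM of B cell genes from 1.64 to 5.10 and from 0.866 to 2.37. Without the eWAT libraries over 10 CPM or over 3 in these measures, which were 4 of 6 in HF, 3 of 4 in LF and 0 of 6 in HFLF, 290 genes stood at an unadjusted p under 0.05 and 0 at an adjusted one by edgeR, with 2 HF libraries of eWAT left. The interaction was then 0.25 for Rgn in place of 2.83 and 1.13 for Lmntd2 in place of 1.89, and for the other 8 genes it ran from -1.70 to 3.89 with the same sign as before. Nr1h4 and Rgn are hepatocyte genes and had medians of 2.905 and 0.63 CPM in eWAT HF and 1.52 and 0.15 CPM in eWAT HFLF.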

How the data were processed

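The authors deposited gene counts per library, and the name of the table records that it was filtered on CPM. The submitters' processing notes name STAR as aligner and GRCm38.p6 as genome build. No source used here gives the counting tool, the annotation release or the strandedness. Deposited RPKM tables were not used, since their values do not follow 1 length per gene. Samples were grouped by title. All 15 liver libraries entered 1 edgeR fit (4.0.16, R 4.3.3; TMM, robust quasi-likelihood, 1 term per arm), with Benjamini-Hochberg adjustment and 95% intervals. DESeq2 1.42.0, limma voom 3.58.1 with quality weights, other scalings and filters, and leaving out each library were alternatives. The interaction of tissue and arm was fitted over 31 libraries, each treated as a separate animal. Liver and eWAT libraries of the same arm and number may come from the same animal, which the labels do not say. With arm and number taken as the animal in limma voom, without quality weights, 555 genes stood at an unadjusted p under 0.05, against 629 by edgeR. CPM used TMM-scaled totals, and floors of 3 counts cover counting error only. Coordinates are from GENCODE for GRCm38.

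Named genes were the 12 smallest p in each direction, up to 6 non-overlapping genes in each direction, up to 6 members of smallest p of each list described, all red blood cell and MHC class II genes, preset regulators, and 5 interaction genes in each direction. The comparison, the members and the lists were chosen with earlier results of these data known. The fit was tested on simulated data. Some genes that this rule names are not reported here.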

Additional observations from a re-analysis of the deposited data

Results flagged for a closer look

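Among 254 groups of libraries tested for a single extreme value (log2 of CPM plus 0.25), 20 held such a value. Chance gives about 1 in 20 groups, but the groups share genes with their lists and some genes were named for standing out in HFLF 4, so the count is a description and no test. HFLF 4 gave 7 of them and HF 6 gave 6. HFLF 4 stood away from its arm in Rab4a (22.6 CPM), Rasgrp3 (7.26 CPM), Hbb-bt (9.08 CPM), Per3 (11.3 CPM), Ciart (3.43 CPM), Usp2 (13.6 CPM) and the mean log2 CPM of the clock genes (4.98). HF 6 stood away in Igkc (59.5 CPM), Jchain (14.55 CPM), Ighm (131.6 CPM), the mean log2 CPM of the B cell genes (2.24), G6pc (892 CPM) and Pde3a (1.83 CPM). HF 3 did so in Hamp (523 CPM), Lrrc39 (1.08 CPM) and Psat1 (0.541 CPM), and HFLF 5 in Cnnm4 (8.60 CPM) and Sptb (2.125 CPM). Single values were Gm16861 in HF 1 (0.785 CPM) and Nr1h4 in HFLF 6 (165.8 CPM).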

How the results depend on the processing

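The count of adjusted calls in liver was 0 under every alternative run, and the interaction count ran from 0 to 1 when single libraries were left out. The count at an unadjusted p under 0.05, 255, ran from 186 to 379 without single libraries. It was 418 with limma voom, 482 with the replicate block and 433 without HF 6 and HFLF 4 together. This last alternative and the thinning were chosen after seeing the data. The replicate block kept only HF and HFLF libraries of shared number, so it also left out HFLF 4 and the LF libraries. Same-numbered HF and HFLF libraries deviated with correlations of -0.10 to 0.25, and 2 of 5 HF libraries matched their own number best. The labels do not say what the number stands for, and 5 pairs are too few to decide whether such libraries share more. Of 2472 values of 119 named genes under alternatives, 2390 kept their sign, and 0 passed the adjusted threshold. Of 1098 list medians, 1 moved by over 1 SD. That SD was the spread of the list mean between libraries within an arm, which a deviant library raises. The B cell median went from -0.37 to 0.05 without HF 6 and did not count as moved. Nor did the cholesterol synthesis median, at -0.15 and at 0.00 without HF 1. The count therefore does not show that list medians were stable. The cause of the sign changes below was not tested.

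Leaving out single libraries gave log2 ranges of -0.48 to 0.039 for Ciita, -0.39 to 0.40 for H2-Ob, -0.26 to 0.56 for H2-DMb2, -2.05 to 0.059 for Igkc, -1.74 to 0.13 for Jchain, -2.12 to 0.15 for Ighm, -0.090 to 0.059 for Slc25a37, -0.040 to 0.11 for Bpgm, -0.11 to 0.66 for Mt1, -0.054 to 0.93 for Mt2, -3.78 to 0.84 for Lcn2, -2.06 to 0.44 for Orm2, -1.31 to 0.021 for Apcs, -0.64 to 0.078 for Fasn, -0.12 to 0.36 for Scd1, -0.37 to 0.040 for Srebf1, -0.24 to 0.037 for Pck1, -0.34 to 0.35 for G6pc, -0.067 to 0.30 for Ppargc1a, -0.062 to 0.16 for Hnf4a, -1.11 to 0.68 for Fgf21, -0.074 to 0.27 for Per3, -0.19 to 0.25 for Ciart, -0.30 to 0.087 for Usp2, -0.34 to 1.45 for Moxd1, -0.095 to 0.067 for Gys2 and -0.039 to 0.075 for Rgn. With limma voom the values were 0.40 for H2-Ob, 0.17 for H2-DMb2, -0.000343 for Scd1, -0.026 for Hnf4a, -0.83 for Fgf21, -0.16 for Moxd1 and 0.0096 for Gys2. With the replicate block they were 0.068 for Slc25a37, 0.0022 for Igf1, -1.12 for Fgf21, 0.14 for Usp2 and 0.056 for Gys2. Thinning gave 0.0083 for Slc25a37. Without HF 6 and HFLF 4 together they were 0.36 for H2-Ob, 0.39 for H2-DMb2, 0.18 for Jchain, 0.055 for Ighm, 0.066 for Slc25a37, 0.21 for G6pc, 0.015 for Igf1, -1.17 for Fgf21, 0.19 for Usp2 and 0.084 for Gys2.

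The shallower HFLF libraries limit genes near the floor, and the median interval half-width of 0.31 limits what could be called.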

Other observations

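Moxd1, a monooxygenase-like gene chosen after its values were seen, varied within every arm. It had 152, 3.68, 246 and 1.84 CPM in LF and 57.3, 9.41, 32.6, 1.18 and 0 CPM in HF. In HFLF it had 0.0728, 99.2, 64.95, 1.92, 0 and 13.6 CPM, and the change of HFLF over HF was 0.58 ± 1.56.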
